A study of Schmidtea mediterranea with 14 samples.

Results

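Solute carriers are membrane proteins that move nutrients, ions, vitamins and waste products across cell and organelle membranes without splitting ATP themselves. The transcripts described here are planarian homologs of these carriers, chosen by sequence match. A transcript was a member if its best human match in the parts of 3 supplementary annotation tables held here had a symbol that starts with SLC, and if it was in none of the study's lipid lists. Most members came from rows held by their rank in another knockdown, as described below. Of 99 transcripts with such a match, 3 were in a lipid list, and 96 remained. Levels are given in CPM, which scales each count to the size of its library. Of these transcripts, 95 reached 1 CPM in 4 or more of the 14 libraries and were tested, among 18436 transcripts tested in all. The transcript that was left out, dd_Smed_v6_35169_0_1 (SLC9A2), had 0.109 to 0.996 CPM, and the lowest that passed, dd_Smed_v6_19953_0_1 (SLC16A5), had 0.801 to 1.76 CPM and reached 1 CPM in 11 libraries. The members fell into 33 carrier families, 12 of them with 1 member and 13 with at least 3. Their names rest on the best human match alone, with an expectation value of at most 1e-20 for 72 of the 95. Weaker matches named, among others, the homologs called SLC43A3, SLC30A10, SLC46A1, SLC6A19, SLC22A15 and SLC2A4RG below. They also named most of the SLC16 homologs. What these do is therefore less certain. By what the matches are known to be, SLC2A4RG, a transcription factor, and SLC9A3R1, a scaffold protein, are regulators and not carriers, although their symbols met the rule.

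The RNA came from whole, uninjured animals of the asexual clonal line CIW4 of *Schmidtea mediterranea*, a free-living flatworm. There were 4 *apob-S*, 4 *apob-M* and 6 control libraries, each from a pool of 5 to 6 animals that ate dsRNA 3 times and then starved for 7 days. The *apob-S* and *apob-M* animals received dsRNA of *apob-1* and *apob-2*, the planarian relatives of apolipoprotein B, and were told apart by how severe their phenotype was. By the paper's description, *apob-S* animals lost pigment over the whole body and moved less, and *apob-M* animals lost it modestly or in regions. Which animals became *apob-S* or *apob-M* was therefore an outcome and not assigned. Control animals received dsRNA of *egfp*, a jellyfish reporter gene that planarians lack.

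Carriers work by coupling. Some let a solute run down its own gradient, others drag it along with sodium or protons, and exchangers trade a solute on each side of the membrane. The gradients that drive them are kept up by ATP-driven pumps. In animals with a gut, carriers of the intestinal lining take up amino acids, sugars and vitamins from digested food, and those of excretory tubules pass organic ions into the urine. Planarians digest food inside intestinal phagocytes, the cells that express *apob-1* and *apob-2*, and carry out excretion through branched protonephridia.

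A stretch of sequence was held for 1 member, *slc22a6* (dd_Smed_v6_1159_0_1), a homolog of the kidney organic anion carrier that the study had cloned. The held part of its cDNA clone opens the coding region with 144 bases, 29.9% of them G or C, shown 5′ to 3′ with the start codon in capitals because this is the member with the second highest level per kilobase.
*slc22a6*: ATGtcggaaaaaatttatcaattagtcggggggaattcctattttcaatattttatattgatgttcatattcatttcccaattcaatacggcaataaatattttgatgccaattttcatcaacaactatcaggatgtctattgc

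Total counts were 16839133 to 23039326 per library. Both targeted transcripts were lower in every *apob-S* and *apob-M* library than in every control library, at 288 ± 41.6 and 266.8 ± 32.8 normalized CPM (SD, n = 4 each) against 1414 ± 184 (SD, n = 6) for *apob-1*, and at 374 ± 111 and 439 ± 89.6 against 1187 ± 259.6 for *apob-2*. Normalized CPM is CPM after scaling of the libraries by the TMM method, whose factors ran from 0.919 to 1.04, with the lowest in *apob-M* replicate 3 and *apob-S* replicate 2. These libraries stood apart. The chi-square per degree of freedom over transcripts was 104 to 139 between *apob-M* replicate 3 and the other *apob-M* libraries and 6.52 to 10.9 among those, and 52.9 to 83.4 between *apob-S* replicate 2 and the other *apob-S* libraries and 10.6 to 19.5 among those. Control replicates 1 and 2 differed from control replicates 3 to 6 by 27.5 to 44.1, against 7.04 between them and 2.95 to 8.96 among the other 4. Deviations from the group mean were correlated at 0.24 between *apob-M* replicate 3 and *apob-S* replicate 2, and at 0.22 and 0.23 between these and control replicate 1. Of 7 cell type markers, 1 was higher and 3 were lower in *apob-S* than in control, and none was at 0 in any library. Of the intestinal markers, *ctsla* was at 1644 to 1957 normalized CPM in *apob-S*, 1710.0 to 1973 in *apob-M* and 1696 to 1933 in control libraries and did not pass the test, while *npc2* was lower in both groups, at 429.2 to 504.7, 348 to 426.8 and 467.5 to 648.2 (log2 ratios −0.23 in *apob-S* and −0.40 in *apob-M*, adjusted p in edgeR = 0.0397 and 0.00188). Of the neoblast markers, *piwi-1* was at 415.5 to 435.5 in *apob-S*, 377.4 to 430.2 in *apob-M* and 396 to 415.1 in control libraries and did not pass, while *tgs-1* was higher in both groups without overlap, at 9.619 to 11, 9.657 to 12.46 and 5.19 to 8.392 (log2 ratios 0.64 and 0.68, adjusted p in edgeR = 0.000156 and 0.000266). The epidermal progeny marker *prog-1* (154.5 to 191.2 in *apob-S*, 224.8 to 266.8 in *apob-M* and 269.1 to 321.0 in control) and the pharynx marker *laminin* (30.28 to 32.26, 36.07 to 48.12 and 53.76 to 76.13) were lower in both groups. The neuronal marker *ChAT*, at 87.45 to 93.75, 96.73 to 115.2 and 80.61 to 97.15, was higher in *apob-M* alone (log2 ratio 0.22, adjusted p in edgeR = 0.0123). The part of these shifts in the results below was not tested. In RNA of whole animals, fewer cells of a type and less RNA per cell cannot be told apart.

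The carrier homologs were more often higher than lower in *apob(RNAi)* animals. In *apob-S* against control, 46 of the 95 were higher, 14 were lower and 35 did not pass the test (edgeR's quasi-likelihood test, Benjamini-Hochberg adjusted p under 0.05 over all 18436 transcripts). Of all transcripts tested, 13.5% were higher and 15.7% lower in that comparison. In *apob-M* against control, 24 members were higher and 4 lower, beside 7.05% and 8.24% of all transcripts. When *apob-S* was set against *apob-M*, 23 members were higher and 7 lower, beside 5.17% and 6.86% of all transcripts. Most changes were small. The median log2 fold change (log2 ratio of the first-named group over the other) of the members was 0.16 in *apob-S* and 0.086 in *apob-M* against control, where the medians over all transcripts were −0.0027 and −0.0025. A change of at least 2-fold was found for 6 members in *apob-S* (1.45% of all transcripts, either direction), for 0 in *apob-M* (0.429%) and for 2 between *apob-S* and *apob-M* (0.564%). Without *apob-M* replicate 3 and *apob-S* replicate 2, 42 members were higher and 12 lower in *apob-S*, 20 and 2 in *apob-M*, and 22 and 5 between them. Without control replicates 1 and 2, the counts were 45 higher and 9 lower in *apob-S*, 20 and 2 in *apob-M*, and 23 and 6 between them. The comparisons with control share the 6 control libraries and are not independent of each other.

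Summed over the 95 members, the level was 4237 to 4393 normalized CPM in *apob-S* libraries, 3857 to 3958 in *apob-M* libraries and 3555 to 3716 in control libraries. The 3 groups did not overlap in this sum. In single members, all *apob-S* libraries were above all control libraries for 39 and below them for 9, beside 10.4% and 11.7% of all transcripts. All *apob-M* libraries were above all control libraries for 24 members and below them for 5, beside 6.09% and 6.44%. All *apob-S* libraries were above all *apob-M* libraries for 24 members and below them for 8, beside 7.04% and 8.73%. Of the 46 members higher in *apob-S*, 22 were also higher in *apob-M*, and 24 passed the test against control in *apob-S* alone. Of the 48 members at or above the median control level of 21.57 normalized CPM, 29 were higher and 7 lower in *apob-S*, and of the 47 below it, 17 were higher and 7 lower.

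**Figure D1:**
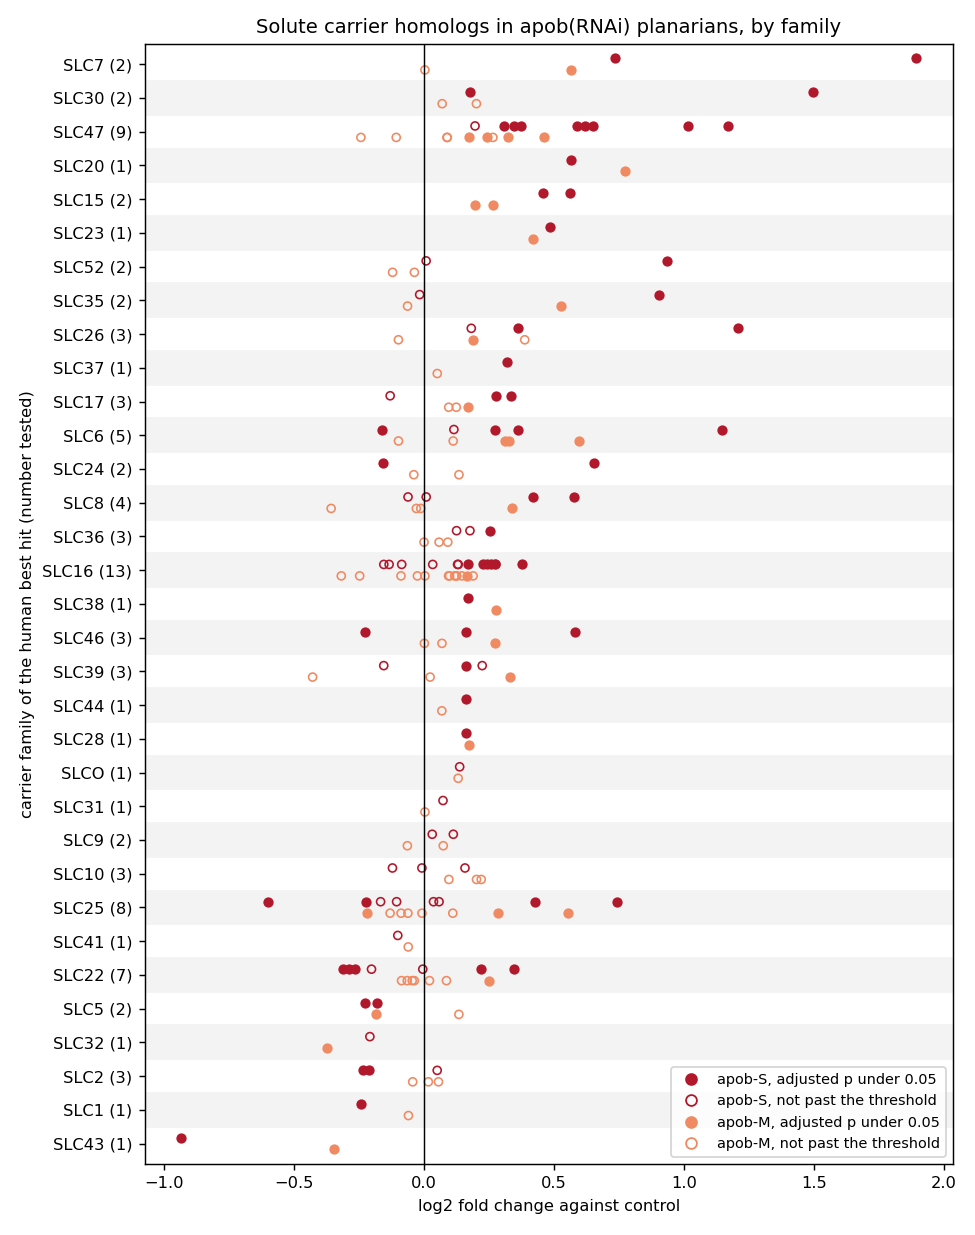
Log2 fold change against control of each of the 95 solute carrier homologs (horizontal axis), by carrier family in order of the *apob-S* median (vertical axis, number tested in parentheses), with *apob-S* above *apob-M* in each row and filled points past the threshold. The 9 SLC47 homologs lie to the right of 0 in *apob-S*, between 0.20 and 1.17, while the 7 SLC22 homologs lie on both sides, between −0.31 and 0.35. Most SLC22 homologs were named by another annotation table than the SLC47 homologs.

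The tables that gave the best matches were not neutral samples of the transcriptome. The largest, held as the 1195 rows with the lowest false discovery rates in a separate knockdown of *nkx2.2*, an intestinal transcription factor, named 64 of the tested members. Among these, 39 were higher and 7 lower in *apob-S* (60.9% and 10.9%), and 23 were higher and 2 lower in *apob-M* (35.9% and 3.12%). The other transcripts of the same table, 721 tested with a human match outside the SLC symbols, also tended upward, with 40.1% higher and 16.2% lower in *apob-S* and 23.2% and 11.5% in *apob-M*. A second table came from the study's own comparison of *apob(RNAi)* animals with control. Its rows were held in the order of transcript identifiers, not of that response, and named 30 members. There, 9 were higher and 7 lower in *apob-S* (30% and 23.3%, beside 13.5% and 19.4% of its 687 other matches), and 2 were higher and 1 lower in *apob-M* (6.67% and 3.33%, beside 7.13% and 7.86%). Their median log2 fold change was −0.011 in *apob-S*, against 0.25 for the members from the *nkx2.2* table. The last table held 971 transcripts enriched in the dividing cell fraction of sorted cells and named 5 members, of which 1 was lower in *apob-M* and none passed the test in *apob-S* (3.65% higher and 6.15% lower in *apob-M*, and 12.9% higher and 7.88% lower in *apob-S*, among its 520 other matches). In all, 4 members stood in more than 1 table. Most of the 95 members thus came from rows that were held by their rank in another knockdown. The paper reports that the *nkx2.2* knockdown also lowered *apob-1* and *apob-2*, so that this ranking is not independent of their loss. Counts by family or class below stand beside these table shares and the shares over all transcripts given above.

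**Figure D2:**
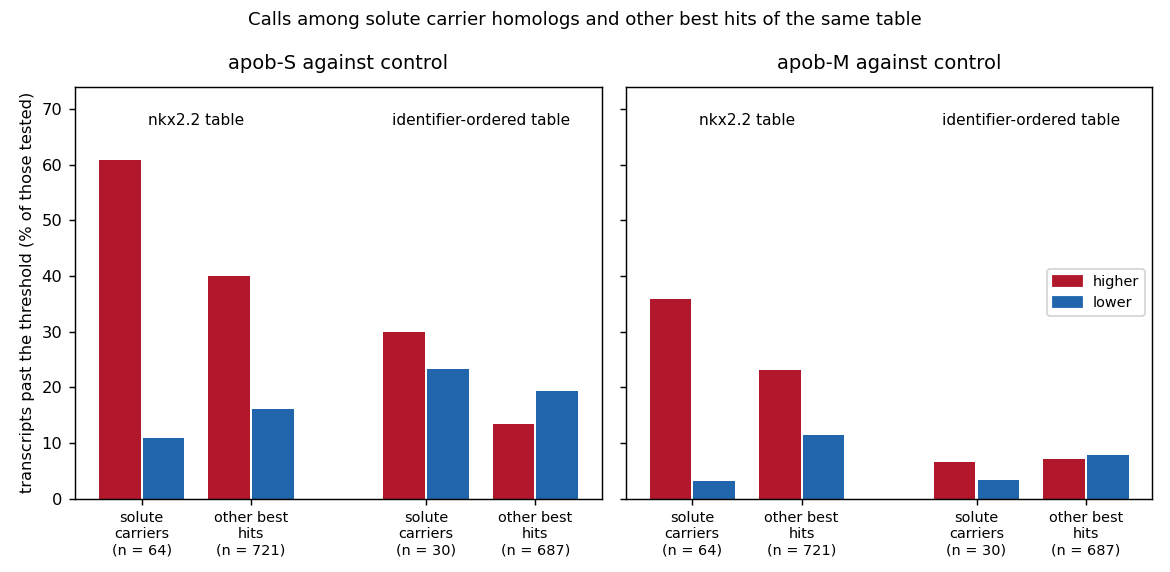
Share of tested transcripts past the threshold (vertical axis, percent) that were higher (red) or lower (blue), for solute carrier homologs and for the other human best hits of the same annotation table, with *apob-S* against control on the left and *apob-M* against control on the right. Among transcripts of the *nkx2.2* table, 60.9% of the carriers and 40.1% of the others were higher in *apob-S*. Among those of the identifier-ordered table, the shares were 30% and 13.5%.

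The organic ion carriers were led by the SLC47 family. These carriers, known in mammals as MATE proteins, push organic cations, toxins and drugs out of kidney and liver cells in exchange for protons. Of the 9 homologs tested, 8 were higher and none lower in *apob-S*, 4 were higher and none lower in *apob-M*, and 7 were higher in *apob-S* than in *apob-M*. By leaving out 1 library at a time, the count stayed at 8 in *apob-S* and at 3 or 4 in *apob-M*. All 9 stood in the *nkx2.2* table. Of the other matches in that table, 40.1% were higher and 16.2% lower in *apob-S*, and 23.2% and 11.5% in *apob-M*. In *apob-S* against *apob-M*, 22.5% of them were higher and 7.91% lower. The SLC47 family was singled out after its values were seen. Its summed level was 544.0 to 596.6 normalized CPM in *apob-S*, 360.2 to 402.8 in *apob-M* and 318.9 to 338.9 in control libraries, with no overlap between groups. The median log2 fold change was 0.59 in *apob-S* and 0.17 in *apob-M*. A read that aligned to more than 1 transcript was counted for every such transcript, so that homologs with like sequence may share counts and their changes are not independent.

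Among them, dd_Smed_v6_7241_0_1 (SLC47A1) was at 88.5, 81.1, 90.7 and 92.1 normalized CPM in the *apob-S* libraries, at 57.2, 52.8, 55.6 and 50.1 in the *apob-M* libraries and at 35.3 to 41.3 (median 39.5) in control libraries. It changed most in the family, by 1.17 ± 0.0498 SE (adjusted p = 3.82e-12 by edgeR) in *apob-S* and 0.46 ± 0.0508 SE (adjusted p = 3.38e-06 by edgeR) in *apob-M* on the log2 scale, and the 3 groups did not overlap. The transcript dd_Smed_v6_2361_0_1 (SLC47A1) was the most abundant of the family per library, at 182, 179.7, 190.3 and 207 in *apob-S*, 125, 125, 112 and 108 in *apob-M* and 89.3 to 99.2 (median 93.7) in control libraries. Its log2 ratio was 1.02 ± 0.0531 SE (adjusted p = 5.87e-11 by edgeR) in *apob-S* and 0.32 ± 0.0537 SE (adjusted p = 0.000325 by edgeR) in *apob-M*. The groups were again apart, and *apob-S* was also above *apob-M* in both transcripts (0.71 and 0.69 on the log2 scale, adjusted p in edgeR = 2.45e-07 and 5.23e-07). A homolog of the related SLC47A2, dd_Smed_v6_5125_0_1, was at 85.4, 89.3, 89.2 and 98.4 in *apob-S*, 69.8, 69.8, 69.4 and 64 in *apob-M* and 53.7 to 60.2 (median 58.8) in control libraries. Its log2 ratio against control was 0.65 ± 0.0454 SE (adjusted p = 2.79e-09 by edgeR) in *apob-S* and 0.24 ± 0.0459 SE (adjusted p = 0.00119 by edgeR) in *apob-M*. Others passed the test in *apob-S* alone, such as dd_Smed_v6_8335_0_1 (SLC47A1), with a log2 ratio of 0.59 in *apob-S* and 0.089 in *apob-M*, and dd_Smed_v6_10595_0_1 (SLC47A2), with 0.37 and −0.11. The member that did not pass against control in either group, dd_Smed_v6_14632_0_1 (SLC47A1), was nevertheless higher in *apob-S* than in *apob-M* (log2 ratio 0.44 ± 0.0951 SE, adjusted p = 0.00413 by edgeR), with 0.20 and −0.24 against control.

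**Figure D3:**
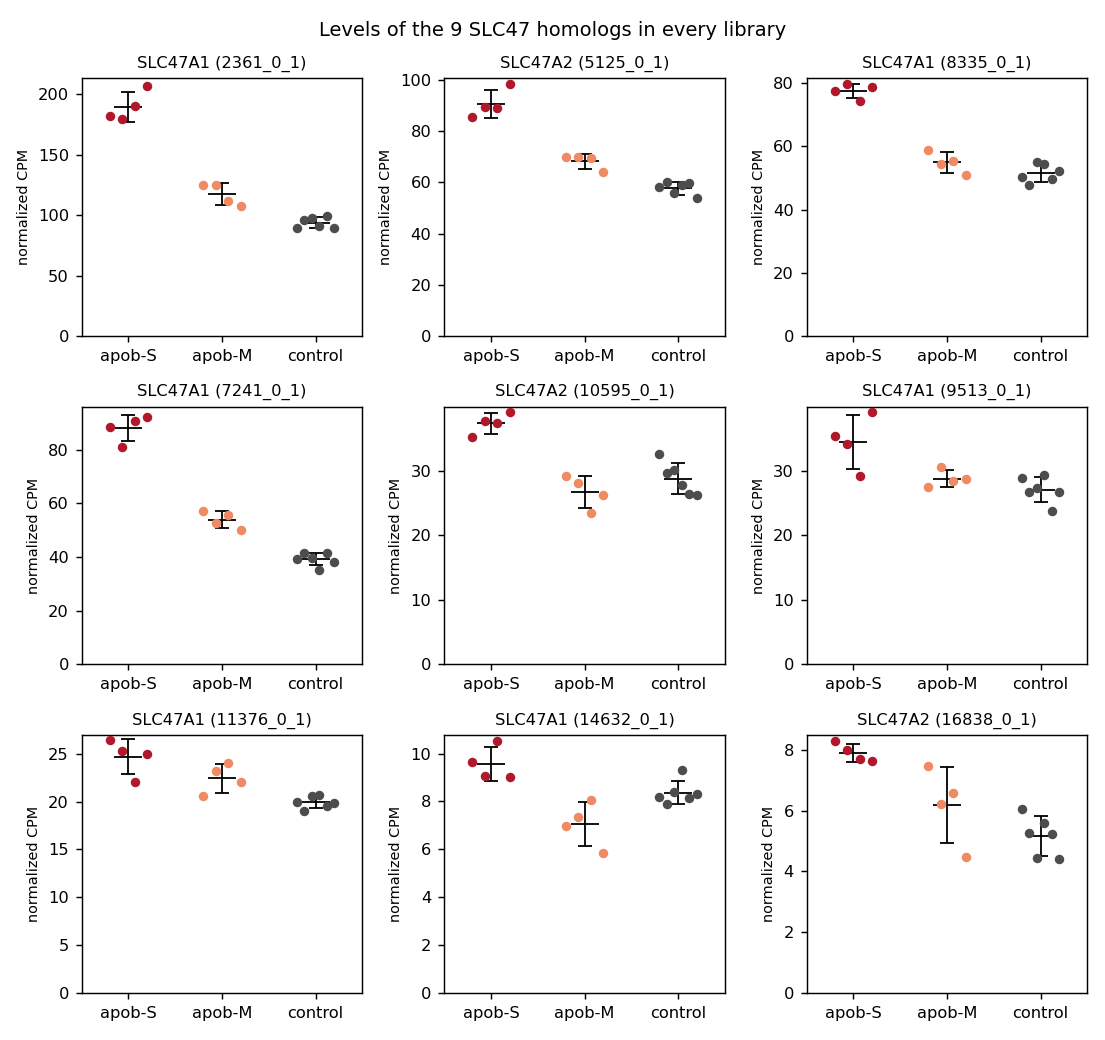
Normalized CPM (vertical axes, from 0) of the 9 SLC47 homologs in every library of *apob-S*, *apob-M* and control (horizontal axes), in falling order of the control mean, with bars at the mean and 1 SD. In the transcripts dd_Smed_v6_2361_0_1 and dd_Smed_v6_7241_0_1 every *apob-S* library lies above every *apob-M* library, and every *apob-M* library above every control library.

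The SLC22 family, which carries organic cations, anions and carnitine, went both ways. Of 7 homologs, 2 were higher and 3 lower in *apob-S*, and 1 was higher in *apob-M*. Most of these 7 came from the identifier-ordered table, so that a contrast with SLC47 cannot be told apart from that between the tables. The *slc22a6* transcript, whose human match takes up organic anions in the kidney, was at 224, 232, 243 and 261 normalized CPM in *apob-S*, 223, 221, 223 and 231 in *apob-M* and 178 to 195 (median 192) in control libraries. Every *apob-S* and *apob-M* library was above every control library, with log2 ratios of 0.35 ± 0.0418 SE (adjusted p = 2.97e-06 by edgeR) and 0.25 ± 0.0419 SE (adjusted p = 0.000353 by edgeR). Between *apob-S* and *apob-M* its groups overlapped (log2 ratio 0.10 ± 0.0461 SE, adjusted p = 0.212 by edgeR). The decreases were found in weaker transcripts. The first was dd_Smed_v6_10903_0_1 (SLC22A5, a match to the carnitine carrier), at 9.04, 9.53, 8.25 and 7.39 in *apob-S* and 9.18 to 12.7 (median 10.5) in control libraries (log2 ratio −0.31 ± 0.0963 SE, adjusted p = 0.0196 by edgeR). The organic cation carrier homolog dd_Smed_v6_10892_0_1 (SLC22A3) was at 9.3, 9.83, 8.62 and 9.68 in *apob-S* and 10.2 to 12.7 (median 11.2) in control libraries (log2 ratio −0.29 ± 0.0824 SE, adjusted p = 0.012 by edgeR), and did not overlap. For dd_Smed_v6_12547_0_1 (SLC22A15), at 5.86, 6.89, 5.36 and 5.51 in *apob-S* and 6.16 to 7.59 (median 7.37) in control libraries, the groups did overlap (log2 ratio −0.27 ± 0.0968 SE, adjusted p = 0.0449 by edgeR). These calls were fragile. SLC22A5 was lost without *apob-S* replicate 3 or 4 (log2 ratios −0.36 to −0.25 over the libraries left out, adjusted p in edgeR up to 0.0759), SLC22A3 without *apob-S* replicate 3 (−0.25, adjusted p in edgeR = 0.0508). That of SLC22A15 was lost without any of 10 libraries, namely control replicates 2, 3, 5 and 6, *apob-M* replicates 2, 3 and 4 and *apob-S* replicates 1, 3 and 4 (−0.34 to −0.22, adjusted p in edgeR up to 0.147). The 3 homologs of the bile acid carriers of the SLC10 family did not pass the test in any comparison, with log2 ratios in *apob-S* of −0.12 to 0.16, nor did the organic anion carrier homolog SLCO2B1 (0.14 in *apob-S*).

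In *apob-S*, 9 of 16 homologs of amino acid and transmitter carriers were higher and 2 lower, and 6 were higher and 1 lower in *apob-M*. The related SLC43A3, whose match carries purine bases, was left out of these counts, is described with them and was lower in both. The sialic acid carrier homologs SLC17A5 were kept in and were higher in *apob-S*. With SLC43A3 counted in, 9 of 17 were higher and 3 lower in *apob-S*. The largest change of any member was that of dd_Smed_v6_13892_0_1 (SLC7A1, whose match carries arginine and lysine). It was at 15.8, 7.68, 13.1 and 11.5 normalized CPM in the *apob-S* libraries, against 2.68, 2.29, 4.4 and 3.64 in *apob-M* and 2.46 to 4.14 (median 3.19) in control libraries. Every *apob-S* library lay above every other library, while *apob-M* and control libraries overlapped. The log2 ratio was 1.89 ± 0.197 SE (adjusted p = 4.49e-07 by edgeR) in *apob-S* against control, 1.89 ± 0.223 SE (adjusted p = 1.57e-05 by edgeR) against *apob-M*, and 0.0031 in *apob-M* against control. Its relative dd_Smed_v6_16390_0_1 (SLC7A2) did not share that pattern, at 9.87, 9.28, 9.37 and 7.86 in *apob-S*, 7.99, 7.95, 8.35 and 8.13 in *apob-M* and 4.63 to 5.93 (median 5.61) in control libraries. It was higher in both groups than in control, by 0.73 ± 0.0853 SE (adjusted p = 1.8e-06 by edgeR) in *apob-S* and 0.56 ± 0.0869 SE (adjusted p = 0.000156 by edgeR) in *apob-M* on the log2 scale, and *apob-S* did not pass the test against *apob-M* (log2 ratio 0.17 ± 0.0903 SE, adjusted p = 0.26 by edgeR).

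In the SLC6 family of sodium- and chloride-coupled transmitter carriers, 3 of 5 homologs were higher and 1 lower in *apob-S*. The glycine carrier homolog dd_Smed_v6_4290_0_1 (SLC6A5) was higher in every comparison, at 110.1, 96, 92.5 and 94.3 normalized CPM in *apob-S*, 71.2, 65.2, 68.5 and 63.1 in *apob-M* and 38.7 to 51 (median 44.1) in control libraries, with no overlap between groups. Its log2 ratio was 1.15 ± 0.0704 SE (adjusted p = 4.8e-10 by edgeR) in *apob-S*, 0.60 ± 0.0713 SE (adjusted p = 9.52e-06 by edgeR) in *apob-M* and 0.55 ± 0.0775 SE (adjusted p = 9.1e-05 by edgeR) between them. Another SLC6A5 homolog, dd_Smed_v6_10458_0_1, had log2 ratios of 0.27 in *apob-S* and 0.11 in *apob-M*, of which the one in *apob-S* passed. The homolog of the neutral amino acid carrier SLC6A19, which in mammals takes up amino acids in the gut, was higher in both groups, with log2 ratios of 0.36 in *apob-S* and 0.33 in *apob-M*. The dopamine carrier homolog SLC6A3 was lower in *apob-S* (−0.16).

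The sharpest decrease of any member was that of dd_Smed_v6_10840_0_1 (SLC43A3), the purine base carrier homolog. It was at 6.26, 6.14, 7.69 and 6.45 normalized CPM in *apob-S*, 9.78, 10.6, 9.34 and 10.2 in *apob-M* and 11.1 to 15.3 (median 12.5) in control libraries. The groups stood apart in the order of severity, with log2 ratios of −0.93 ± 0.0934 SE (adjusted p = 2.82e-07 by edgeR) in *apob-S*, −0.35 ± 0.0883 SE (adjusted p = 0.0107 by edgeR) in *apob-M* and −0.59 ± 0.103 SE (adjusted p = 0.000754 by edgeR) between them. The glutamate carrier homolog dd_Smed_v6_1106_0_1 (SLC1A2), whose match clears glutamate from synapses in the mammalian brain, had the highest level of all members, 170.4, 193.6 and 202 normalized CPM per kilobase of transcript in *apob-S*, *apob-M* and control. In CPM without length it was at 302, 325, 319 and 320.5 in *apob-S*, 359, 356, 364 and 361 in *apob-M* and 357 to 385 (median 378) in control libraries. Its decrease in *apob-S* was small and clear of the spread (log2 ratio −0.24 ± 0.0319 SE, adjusted p = 7.39e-06 by edgeR), also against *apob-M* (log2 ratio −0.18 ± 0.0347 SE, adjusted p = 0.00133 by edgeR). Of the vesicle and lysosome carriers of the SLC17 family, the sialic acid carrier homolog dd_Smed_v6_1874_0_1 (SLC17A5) was higher in every comparison, at 208, 226, 218 and 219.6 in *apob-S*, 199, 199, 191 and 189.5 in *apob-M* and 168 to 180.1 (median 172) in control libraries (0.33, 0.17 and, between *apob-S* and *apob-M*, 0.16 on the log2 scale, adjusted p in edgeR = 7.53e-07, 0.00304 and 0.00931). Its call in *apob-M* was lost under edgeR's exact test (adjusted p = 0.0801), and its call between *apob-S* and *apob-M* under the exact test (adjusted p = 0.159), with scaling by library size alone (adjusted p = 0.146) and without *apob-M* replicate 3 and *apob-S* replicate 2 together (log2 ratio 0.14, adjusted p in edgeR = 0.0631). The vesicular glutamate carrier homolog dd_Smed_v6_10192_0_1 (SLC17A6) was at a lower level in *apob-S* than *apob-M* libraries (27.9, 31.7, 29.1 and 32.8 against 38.9, 34.2, 35.8 and 35.8, log2 ratio −0.25 ± 0.071 SE, adjusted p = 0.0228 by edgeR). That call was lost without *apob-M* replicate 1 or *apob-S* replicate 1 or 3 (−0.29 to −0.21 over the libraries left out, adjusted p in edgeR up to 0.0842). The vesicular GABA and glycine carrier homolog dd_Smed_v6_20353_0_1 (SLC32A1) was lower in *apob-M* (4.37, 4.39, 3.85 and 4.64 against 4.88 to 6.07 (median 5.75) in control, log2 ratio −0.37 ± 0.122 SE, adjusted p = 0.0445 by edgeR). That call was lost without any of control replicates 1 to 4 or any *apob-M* library (−0.41 to −0.32 over the libraries left out, adjusted p in edgeR up to 0.145). The remaining families of this class, the lysosomal amino acid carriers SLC36 and SLC38, had log2 ratios of 0.12 to 0.25 in *apob-S*, of which SLC36A4 and SLC38A7 passed.

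**Figure D4:**
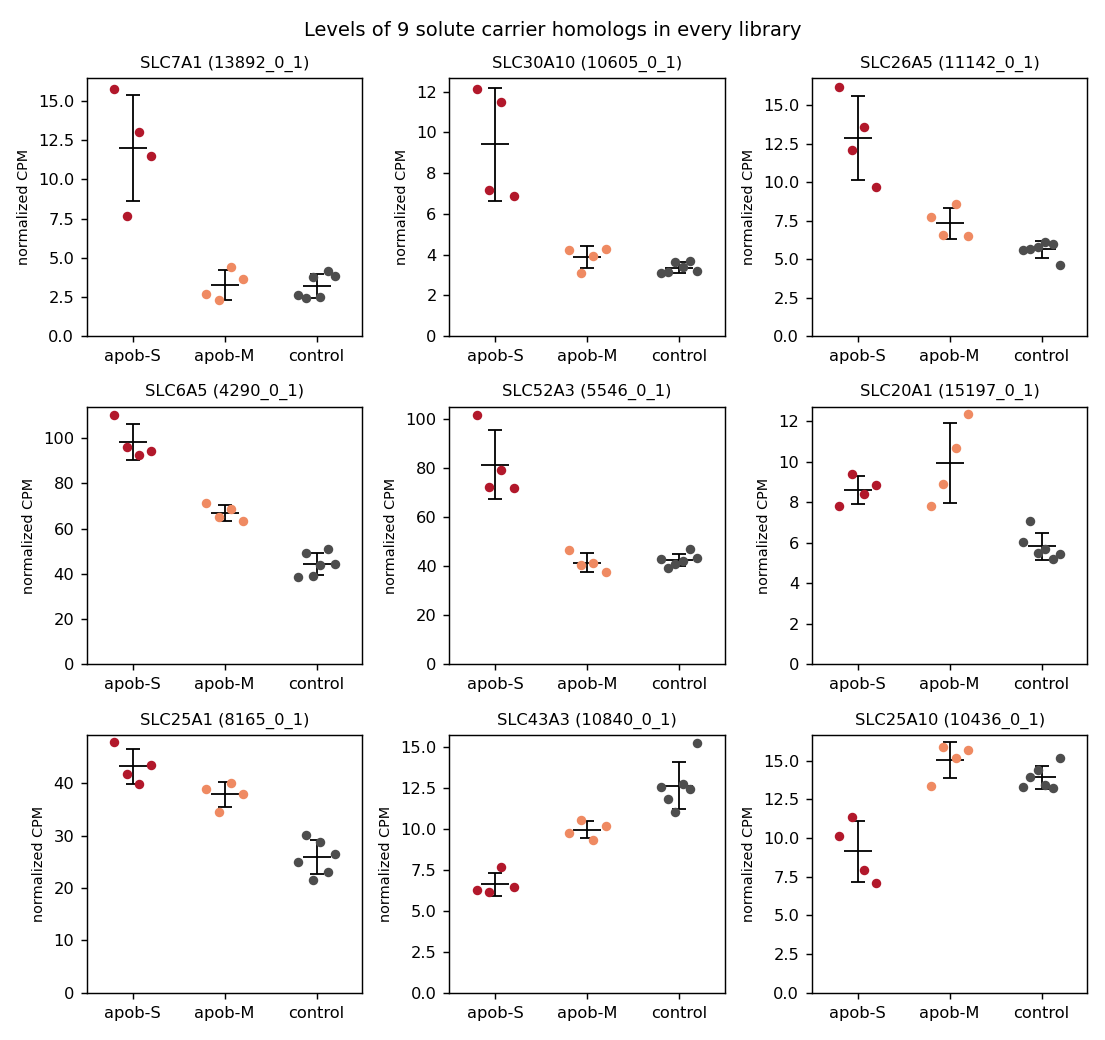
Normalized CPM (vertical axes, from 0) of 9 solute carrier homologs in every library of *apob-S*, *apob-M* and control (horizontal axes), with bars at the mean and 1 SD. SLC7A1, SLC30A10 and SLC52A3 have *apob-S* libraries above all others, SLC6A5 has the 3 groups apart, and SLC43A3 and SLC25A10 have *apob-S* libraries below all others.

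Among 18 homologs of carriers for inorganic ions and metals, the scaffold SLC9A3R1 left aside, 9 were higher and 1 lower in *apob-S*, and 4 were higher in *apob-M*. The homolog dd_Smed_v6_10605_0_1 (SLC30A10, whose match exports manganese from cells) was at 12.1, 7.18, 11.5 and 6.86 normalized CPM in *apob-S*, 4.21, 3.08, 3.95 and 4.28 in *apob-M* and 3.08 to 3.67 (median 3.31) in control libraries. All *apob-S* libraries were above all others, and the log2 ratio was 1.496 ± 0.156 SE (adjusted p = 4.77e-07 by edgeR) against control and 1.29 ± 0.172 SE (adjusted p = 5.75e-05 by edgeR) against *apob-M*. In *apob-M* against control it was 0.20 and did not pass. The anion exchanger homolog dd_Smed_v6_11142_0_1 (SLC26A5, which in the mammalian inner ear drives the motion of hair cells) was at 16.2, 12.1, 13.6 and 9.68 in *apob-S*, 7.73, 6.54, 8.6 and 6.49 in *apob-M* and 4.59 to 6.12 (median 5.73) in control libraries. Its groups did not overlap either, with log2 ratios of 1.21 ± 0.124 SE (adjusted p = 3.74e-07 by edgeR) in *apob-S* and 0.39 ± 0.133 SE (adjusted p = 0.0578 by edgeR) in *apob-M*, so that the difference in *apob-M* did not pass the test. A second SLC26A5 homolog, dd_Smed_v6_10602_0_1, had 0.18 in *apob-S* and −0.10 in *apob-M*, neither past the threshold.

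The phosphate carrier homolog dd_Smed_v6_15197_0_1 (SLC20A1) had the largest increase of any member in *apob-M*. Its level was 7.83, 8.88, 10.7 and 12.3 normalized CPM in *apob-M* libraries, against 5.19 to 7.08 (median 5.59) in control libraries (log2 ratio 0.77 ± 0.116 SE, adjusted p = 0.000122 by edgeR), and 7.8, 9.38, 8.39 and 8.86 in *apob-S* libraries (log2 ratio 0.56 ± 0.118 SE, adjusted p = 0.00113 by edgeR against control). It was higher than control in every library of both groups, which overlapped each other (log2 ratio −0.21 ± 0.123 SE, adjusted p = 0.329 by edgeR). In the SLC8 family of sodium/calcium exchangers, dd_Smed_v6_7229_0_1 (SLC8A1) was higher in every comparison, at 90.7, 82.5, 80 and 89.8 in *apob-S*, 67.8, 69.1, 76.9 and 76.7 in *apob-M* and 55.3 to 60.1 (median 57.5) in control libraries. Its log2 ratios were 0.58 ± 0.0478 SE (adjusted p = 2.36e-08 by edgeR) in *apob-S* and 0.34 ± 0.0481 SE (adjusted p = 6.78e-05 by edgeR) in *apob-M*, and 0.24 between them (adjusted p in edgeR = 0.00454). A weaker SLC8A1 homolog, dd_Smed_v6_12990_0_1, was at 2.25, 2.54, 1.96 and 2.7 in *apob-S*, 1.37, 1.36, 1.19 and 1.58 in *apob-M* and 1.58 to 2.15 (median 1.66) in control libraries. It was higher in *apob-S* than in *apob-M* (log2 ratio 0.78 ± 0.171 SE, adjusted p = 0.00466 by edgeR), for which DESeq2 gave no adjusted p. Its call against control (log2 ratio 0.42 ± 0.149 SE, adjusted p = 0.0415 by edgeR) was lost with 4 of 9 other analyses, among them DESeq2, and without any of control replicates 1 to 5 or *apob-S* replicates 1, 2 or 4 (0.35 to 0.50 over the libraries left out, adjusted p in edgeR up to 0.121). The mitochondrial exchanger homologs SLC8B1 did not pass in any comparison. Of the SLC24A5 homologs, whose match acts in pigment cells of vertebrates, dd_Smed_v6_17208_0_1 had a log2 ratio of 0.65 and dd_Smed_v6_7121_0_1 of −0.16 in *apob-S*, both past the threshold in opposite directions. Of the zinc importers of the SLC39 family, 1 of 3 was higher in *apob-S* and 1 in *apob-M*. The homologs of the copper carrier SLC31A1 and the magnesium carrier SLC41A1 did not pass in any comparison.

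Vitamin, nucleoside and choline carriers followed the same direction in most cases, with 6 of 8 homologs higher and 1 lower in *apob-S*, and 3 higher in *apob-M*. The riboflavin carrier homolog dd_Smed_v6_5546_0_1 (SLC52A3) was at 102, 72.2, 79.3 and 71.7 normalized CPM in *apob-S*, against 46.6, 40.4, 41.1 and 37.7 in *apob-M* and 39.2 to 46.9 (median 42.5) in control libraries. It stood above all other libraries in *apob-S*, with log2 ratios of 0.93 ± 0.0815 SE (adjusted p = 4.79e-08 by edgeR) against control and 0.97 ± 0.0912 SE (adjusted p = 1.43e-06 by edgeR) against *apob-M*, while *apob-M* against control was at −0.037. The other SLC52A3 homolog, dd_Smed_v6_11730_0_1, was at 0.0079 and did not pass. The folate carrier homolog dd_Smed_v6_5528_0_1 (SLC46A1) was at 87.6, 86.7, 86 and 89.1 in *apob-S*, 73.3, 68.8, 72 and 67.9 in *apob-M* and 55.9 to 61 (median 58.3) in control libraries. Its 3 groups did not overlap, with 0.58 ± 0.0368 SE (adjusted p = 6.89e-10 by edgeR) in *apob-S*, 0.27 ± 0.0371 SE (adjusted p = 4.31e-05 by edgeR) in *apob-M* and 0.31 ± 0.0406 SE (adjusted p = 5.11e-05 by edgeR) between them on the log2 scale. Its relatives SLC46A3 and SLC46A2 had 0.16 and −0.23 in *apob-S*, past the threshold in opposite directions. The ascorbate carrier homolog SLC23A2 was higher by 0.48 in *apob-S* and 0.42 in *apob-M*, the nucleoside carrier homolog SLC28A3 by 0.16 and 0.17, and the choline carrier homolog SLC44A2 by 0.16 in *apob-S*.

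The largest family by number was SLC16, some of whose human members carry lactate, pyruvate and ketone bodies. Of its 13 homologs, 6 were higher and none lower in *apob-S*, with 1 higher in *apob-M*. Changes in the family were small, with a median log2 fold change of 0.17 and a highest value of 0.38 in *apob-S*, that of dd_Smed_v6_4634_0_1 (SLC16A12). The summed level of the family was 567.4 to 592.0 normalized CPM in *apob-S*, 516.4 to 544.2 in *apob-M* and 484.6 to 508.0 in control libraries, with no overlap. The peptide carriers of lysosomes were represented by a pair of SLC15A4 homologs, which were higher in every comparison. Of these, dd_Smed_v6_3578_0_1 was at 70.2, 74.5, 74.8 and 80.2 in *apob-S*, 59.7, 60.9, 59.5 and 52 in *apob-M* and 49.2 to 52.8 (median 50) in control libraries, with log2 ratios of 0.56 ± 0.0467 SE (adjusted p = 2.5e-08 by edgeR) in *apob-S* and 0.19 ± 0.0473 SE (adjusted p = 0.00836 by edgeR) in *apob-M*. Its companion dd_Smed_v6_8178_0_1 was at 51.2, 48.1, 48.7 and 47.2 in *apob-S*, 43.1, 41.6, 47 and 38.8 in *apob-M* and 32.1 to 38.7 (median 35.4) in control libraries, with 0.46 ± 0.0562 SE (adjusted p = 3.51e-06 by edgeR) and 0.26 ± 0.0568 SE (adjusted p = 0.00328 by edgeR). Between *apob-S* and *apob-M*, the difference of dd_Smed_v6_3578_0_1 (log2 ratio 0.37 ± 0.0515 SE, adjusted p = 8.82e-05 by edgeR) held with every library left out. That of dd_Smed_v6_8178_0_1 (log2 ratio 0.19 ± 0.0615 SE, adjusted p = 0.0456 by edgeR) was lost with 4 of 9 other analyses and without any of 9 libraries, namely control replicates 2 and 3, *apob-M* replicates 1, 2 and 4 and every *apob-S* library (0.15 to 0.25 over the libraries left out, adjusted p in edgeR up to 0.152).

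The 6 homologs of sugar carriers split in *apob-S* into 2 higher, 2 lower and 2 that did not pass, with a median log2 fold change of 0.017, and 1 was higher and 1 lower in *apob-M*. These counts include SLC35F2, placed there by its family, which was higher in both groups. Both relatives set beside these 6 homologs by symbol, the small acid carrier homolog SLC5A8 and the regulator SLC2A4RG, were lower in *apob-S*, and the SLC5A8 call against control was lost without control replicates 1 and 2 (log2 ratio −0.16, adjusted p in edgeR = 0.0635). With both relatives counted in, 2 of 8 members were higher and 4 lower in *apob-S*, and the median of their log2 ratios was −0.099. The sign of the sugar median thus depends on leaving these relatives out. Differences between classes of carriers were not tested. The sodium-coupled glucose carrier homolog dd_Smed_v6_6663_0_1 (SLC5A1), whose match takes up glucose in the mammalian gut, was at 32.6, 31, 31.1 and 35 normalized CPM in *apob-S*, 33, 34.9, 32.2 and 33.4 in *apob-M* and 35 to 41.1 (median 38.4) in control libraries (log2 ratio −0.23 ± 0.049 SE, adjusted p = 0.00139 by edgeR in *apob-S*). The decrease found in *apob-M* (log2 ratio −0.19 ± 0.0489 SE, adjusted p = 0.0134 by edgeR) was lost without *apob-M* replicate 3 (−0.16, adjusted p in edgeR = 0.0633). The small acid carrier homolog dd_Smed_v6_14173_0_1 (SLC5A8) had less signal in *apob-S* than *apob-M* libraries, at 19, 18.7, 19.1 and 19.1 against 23.9, 24.4, 22.9 and 23.1 (log2 ratio −0.32 ± 0.0568 SE, adjusted p = 0.000922 by edgeR). Between the inositol carrier homologs SLC2A13, dd_Smed_v6_10218_0_1 was at 19.7, 17.2, 18.5 and 20.6 in *apob-S*, 22.4, 21.6, 20.4 and 24.5 in *apob-M* and 20.7 to 23.9 (median 21.3) in control libraries. It was lower in *apob-S* (log2 ratio −0.21 ± 0.0655 SE, adjusted p = 0.0196 by edgeR), while dd_Smed_v6_4836_0_1, at a log2 ratio of 0.051, did not pass. Its call against control fell away without *apob-S* replicate 2 or 3 (−0.25 to −0.16, adjusted p in edgeR up to 0.0916). The call against *apob-M* (log2 ratio −0.23 ± 0.0715 SE, adjusted p = 0.0437 by edgeR) was lost without any of 7 libraries, namely control replicate 6, *apob-M* replicates 1, 2 and 4 and *apob-S* replicates 1, 2 and 3 (−0.27 to −0.18, adjusted p in edgeR up to 0.156). The regulator homolog dd_Smed_v6_3821_0_1 (SLC2A4RG) was lower in *apob-S* than in control (log2 ratio −0.23 ± 0.0426 SE, adjusted p = 0.000289 by edgeR) and *apob-M* (log2 ratio −0.29 ± 0.0464 SE, adjusted p = 0.000312 by edgeR). Higher in *apob-S* were the sugar phosphate exchanger homolog SLC37A2 (0.32) and dd_Smed_v6_15364_0_1 (SLC35F2), a relative of the nucleotide sugar carriers, at 7.27, 6.89, 4.75 and 6.69 in *apob-S*, 4.26, 4.77, 5.63 and 5.01 in *apob-M* and 2.69 to 3.83 (median 3.6) in control libraries. SLC35F2 had log2 fold changes of 0.90 ± 0.134 SE (adjusted p = 3.51e-05 by edgeR) in *apob-S* and 0.53 ± 0.14 SE (adjusted p = 0.0145 by edgeR) in *apob-M*. Its call in *apob-M* was lost without *apob-M* replicate 3 (0.46, adjusted p in edgeR = 0.0608). It was also lost without control replicates 1 and 2 together (0.42, adjusted p in edgeR = 0.0631).

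The mitochondrial carriers of the SLC25 family exchange metabolites across the inner membrane. Of 8 homologs, 2 were higher and 2 lower in *apob-S*, and 2 were higher and 1 lower in *apob-M*. The citrate carrier homolog dd_Smed_v6_8165_0_1 (SLC25A1), whose match passes citrate to the cytosol, where it feeds the synthesis of fatty acids and sterols, was at 47.8, 41.8, 39.8 and 43.4 normalized CPM in *apob-S*, 39, 34.6, 40 and 38 in *apob-M* and 21.6 to 30.1 (median 25.8) in control libraries. Both groups were above all control libraries and overlapped each other, with log2 ratios of 0.74 ± 0.076 SE (adjusted p = 3.74e-07 by edgeR) and 0.55 ± 0.0769 SE (adjusted p = 5.2e-05 by edgeR) against control. The dicarboxylate carrier homolog dd_Smed_v6_10436_0_1 (SLC25A10), whose match exchanges malate and succinate for phosphate, was at 10.1, 11.4, 7.92 and 7.1 in *apob-S*, against 13.4, 15.9, 15.2 and 15.7 in *apob-M* and 13.2 to 15.2 (median 13.7) in control libraries. It was below all other libraries in *apob-S*, by −0.60 ± 0.103 SE (adjusted p = 0.000154 by edgeR) against control and −0.71 ± 0.111 SE (adjusted p = 0.000242 by edgeR) against *apob-M*, while *apob-M* against control was at 0.11 and did not pass. Of the others, the calcium-regulated ATP-magnesium/phosphate carrier homolog SLC25A24 was higher (0.43 in *apob-S* and 0.28 in *apob-M*) and the ornithine carrier homolog SLC25A15 lower in *apob-S* (−0.22). The homologs of the oxoglutarate carrier SLC25A11, the S-adenosylmethionine carrier SLC25A26 and the iron carrier SLC25A37 did not pass.

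Changes ordered by severity were found for 10 members that passed the test in all 3 comparisons, 9 of them higher and 1 lower in each. The share of all transcripts that passed in all 3 was not counted. Whether these 10 members exceed that share was therefore not tested. The single shares that follow cannot stand in for it, because the 3 comparisons were built from the same libraries. Singly, 29.3% of all transcripts passed in *apob-S* against control, 15.3% in *apob-M* against control and 12% in *apob-S* against *apob-M*, in either direction. The 9 higher members were homologs of SLC47A1 (dd_Smed_v6_7241_0_1 and dd_Smed_v6_2361_0_1), SLC47A2, SLC6A5, SLC8A1, SLC15A4 (both), SLC17A5 and SLC46A1, and the lower member was the SLC43A3 homolog. Not all 3 calls held in every other analysis for SLC17A5, SLC43A3 and the SLC15A4 homolog dd_Smed_v6_8178_0_1. In 29 members no comparison passed. Per kilobase of transcript, the members spanned 1.428 to 201.9 normalized CPM in control, with a median of 13.02, and the highest after SLC1A2 were *slc22a6* (122 in *apob-S*, 114 in *apob-M* and 95.8 in control), the lactate carrier relative SLC16A14 (103, 98.1 and 87.5) and SLC17A5 (107, 95.8 and 85.1).

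The pumps that set up the gradients for carriers were measured as a separate list of 11 tested homologs of ion pumps, ABC transporters and a water channel. Of these, 4 were higher and 1 was lower in *apob-S*, beside 13.5% and 15.7% of all transcripts. In *apob-M*, 5 were higher and none lower, beside 7.05% and 8.24%. The median log2 fold changes were 0.057 in *apob-S* and 0.11 in *apob-M*. Most of the 11 stood in the *nkx2.2* table, where 40.1% of the matches outside the SLC symbols were higher in *apob-S* and 23.2% in *apob-M*. The ABC transporter homolog dd_Smed_v6_3982_0_1 (ABCC1, which exports conjugated organic anions) was at 165, 177, 160.5 and 186 normalized CPM in *apob-S*, 154, 151, 163 and 149 in *apob-M* and 100.2 to 106 (median 104) in control libraries, with no overlap with control (0.73 ± 0.043 SE (adjusted p = 2.86e-10 by edgeR) in *apob-S* and 0.57 ± 0.0431 SE (adjusted p = 2.98e-08 by edgeR) in *apob-M* on the log2 scale). A second ABCC1 homolog, dd_Smed_v6_9357_0_1, was at 57.7 to 61 in *apob-S*, 62.59 to 74.1 in *apob-M* and 54.83 to 59.29 in control libraries, higher in *apob-M* than in control (log2 ratio 0.24, adjusted p in edgeR = 0.00119). Its level in *apob-S* was below that in *apob-M* (−0.19, adjusted p in edgeR = 0.0207), and *apob-S* against control, at 0.057, did not pass. The homolog of the related ABCC3 did not pass in any comparison. The calcium pump homolog ATP2A2 of the endoplasmic reticulum (0.33 and 0.32) and the plasma membrane calcium pump homolog ATP2B2 (0.33 and 0.24) were also higher in both groups, as was the proton pump subunit ATP6V0C (0.34 and 0.12). The sodium pump subunit ATP1B1 was lower in *apob-S* (−0.16) and the water channel AQP1 did not pass (−0.20). Of the 3 SLC homologs left out because they stood in a lipid list, the dicarboxylate and citrate carrier homolog SLC13A3 (0.81 in *apob-S* and 0.21 in *apob-M*) and the organic anion carrier homolog SLCO1B3 (0.44 and 0.19) were higher in both groups, and the sulfate carrier homolog SLC13A1 (−0.55 and −0.21) was lower.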

How the data were processed

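RNA of 14 libraries (4 *apob-S*, 4 *apob-M*, 6 control), sequenced as paired-end reads, was used as counts per transcript. The authors checked reads with FastQC 0.11.5, trimmed them with BBDuk, aligned them with Bowtie2 2.3.1 to the unique transcripts of the dd_Smed_v6 assembly, and counted them with featureCounts (Subread 1.6.3), with multi-mapping and overlapping reads counted on every transcript; the deposited counts are not normalized. A second deposited table holds the authors' own fold changes and false discovery rates and was not used. Members and lists were chosen with earlier results of these data known.

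A transcript was kept if 4 or more libraries reached 1 CPM (18436 of 28069). All 14 libraries were fitted together with edgeR 4.0.16's quasi-likelihood test (R 4.3.3) after TMM scaling, with group as the only term and Benjamini-Hochberg adjustment at 0.05 over all transcripts. SE is the absolute log2 ratio divided by the square root of F. The scripts were tested on simulated counts. Replicates are separate pools of animals, and no pair within a group agreed within counting noise (chi-square per degree of freedom 2.95 to 139).

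Named members were, per comparison, the 6 most positive and the 6 most negative past the threshold, every member past it in all 3 comparisons, and *slc22a6*. Others are named within their family by log2 ratio, and the pumps and water channel and the lipid-list carriers are separate lists. No genome was used, so transcripts carry dd_Smed_v6 identifiers without coordinates. The cDNA stretch came from the study's clone list, and sequences of other members were not analysed here. Values of a few members are not reported here, although they stand in the counts. Alternatives were DESeq2 1.42.0, limma-voom (limma 3.58.1) and edgeR's exact test, scaling by DESeq2's size factors or by library size, a filter at 5 CPM or none, a fit of only the 2 groups compared, a replicate block, stricter thresholds, subsets of members, each library left out, and the libraries that stood apart left out together. Same-numbered libraries did not deviate together (correlations of −0.198 to 0.125, 1 of 12 pairs over 0.1), so that the numbers do not pair them.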

Additional observations from a re-analysis of the deposited data

Results flagged for a closer look

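A check for a highest or lowest library that lies far from the rest of its group was run on 33 transcripts in 3 groups each (99 groups of libraries), and 4 values stood apart. Chance alone flags about 1 in 20 such groups. The SLC7A2 homolog dd_Smed_v6_16390_0_1 had 4.632 normalized CPM in control replicate 6, against 5.473 to 5.929 in the other control libraries. The SLC26A5 homolog dd_Smed_v6_11142_0_1 was low in the same library, with 4.589 against 5.626 to 6.123. In *apob-M* replicate 4, the SLC15A4 homolog dd_Smed_v6_3578_0_1 had 51.98, against 59.48 to 60.86 in the other *apob-M* libraries, and the SLC47A2 homolog dd_Smed_v6_5125_0_1 had 64.01, against 69.41 to 69.83. The calls of these 4 transcripts against control held without these libraries.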

How the results depend on the processing

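The counts of higher members kept within 1.5 times of their value in every other analysis at the same threshold, apart from the subset from the identifier-ordered table. Over the libraries left out they ranged from 43 to 48 in *apob-S* against control, from 21 to 25 in *apob-M* against control and from 21 to 23 in *apob-S* against *apob-M*, and those of lower members from 10 to 15, from 2 to 5 and from 5 to 7. The 4 members lower in *apob-M* were the least firm, with 1 called by library size alone, 2 without a filter, 2 with the replicate number as a block, 0 at a threshold of 0.01, and 2 without either *apob-M* replicate 3 and *apob-S* replicate 2 or control replicates 1 and 2, choices made after seeing the data. Without control replicates 1 and 2, 9 members were lower in *apob-S*. At 0.01, 6 members were lower in *apob-S*. At least 2-fold higher were 6 in *apob-S*, 0 in *apob-M* and 2 between them, with 0 lower in each comparison. Of the members from the identifier-ordered table alone, 9 were higher and 7 lower in *apob-S*, 2 and 1 in *apob-M*, and 5 and 5 between *apob-S* and *apob-M*. From the *nkx2.2* table alone, 7 were lower in *apob-S*, 2 in *apob-M* and 2 between them. These subsets hold fewer members by construction, and the cause of the other shifts was not tested. The calls of members chosen by the naming rule and of the targeted *apob-1* and *apob-2* came to 72. Of these, 56 held with every library left out and in each of 9 other analyses that gave an adjusted p, and none reversed. The calls of *apob-1* and *apob-2* against control were all among the 56, so that the share of carrier calls that held is lower. Of these 72, 9 were lost without *apob-M* replicate 3 and *apob-S* replicate 2 together and 7 without control replicates 1 and 2. DESeq2 gave no adjusted p for 4 member results. With the replicate block, which pairs libraries that share only a number, the counts were 42 higher and 12 lower in *apob-S* and 20 and 2 in *apob-M*, and 22 and 7 between them. The call of SLC43A3 in *apob-M* was lost under that block, and that of SLC1A2 in *apob-S* against *apob-M* under the exact test. Calls of members under 10 CPM rest on fewer counts.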
